A study of Mus musculus with 2 samples.

Results

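Neutrophils of the colonic lamina propria (LP) were examined in DSS colitis, among CD45+ cells sequenced one by one. A barcode counted as a neutrophil when S100a8 and S100a9 together held at least 5% of its unique molecular identifiers (UMIs, which count transcript molecules), when Csf3r, Cxcr2, Retnlg and G0s2 together had at least 3 UMIs, and when it had 0 UMIs of Cd3e, at most 1 of Cd79a and at most 2 of C1qa, C1qb and C1qc. This rule found 375 neutrophils among 14736 kept barcodes, which had at least 500 UMIs, at least 200 genes and less than 5% mitochondrial UMIs. The 2 libraries came from C57BL/6 mice of 8 to 10 weeks, 1 from WT mice and 1 from Ring1AKO mice, which lack the Polycomb protein Ring1a in the whole body. By the title of the series both groups had DSS-induced colitis, so that neither was a healthy control. Living leukocytes of the LP were sorted as CD45+ 7-AAD- cells, and each library was made from a pool of mice. With 1 library per genotype there were no replicates, so no test was made, and an effect of genotype and a library batch cannot be told apart. All intervals below are exact 95% intervals, Clopper-Pearson for shares, Poisson for levels and conditional on the summed count for ratios, where both counts are taken as Poisson, and they cover counting error only.

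Neutrophils are short-lived phagocytes that leave the bone marrow, enter inflamed mucosa along chemokine gradients, and kill microbes with granule proteins and oxidants. Their granules are filled in order during maturation in the marrow. Transcripts of azurophil granule proteins are made first, those of specific granule proteins such as Ngp, Camp and Ltf in the following stages, and those of gelatinase granule proteins late, while the calgranulins S100a8 and S100a9 remain abundant in mature cells. Transcripts of Ngp, Camp and Ltf therefore mark a less mature neutrophil.

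The WT library held 173 neutrophils of 6262 kept barcodes, a share of 2.76% (2.37% to 3.20%). The Ring1AKO library held 202 of 8474, a share of 2.38% (2.07% to 2.73%). The log2 ratio of the shares, Ring1AKO over WT, was -0.21 (-0.51 to 0.09), so the difference lay within counting error. Among barcodes with at least 1000 UMIs the shares were 2.66% and 2.39%. When barcodes with B or plasma cell transcripts were left out, which removed some of the barcodes called neutrophils as well, neutrophils made up 4.52% (155 of 3427) and 6.26% (182 of 2908), a log2 ratio of 0.47 (0.15 to 0.79). The order of the libraries therefore depended on whether these barcodes were counted.

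The neutrophils had a median of 4428 UMIs and 1020 genes in the WT library and of 4976 UMIs and 1055 genes in the Ring1AKO library, and 784244 and 992985 UMIs in all. Their median calgranulin share was 15.2% of UMIs in WT and 20.1% in Ring1AKO. The cells were chosen by these shares, by the 4 receptor and marker transcripts and by the limits on Cd3e, Cd79a and C1q, so all of these are given as a description only. The nearest WT neutrophil inside the limit had a calgranulin share of 5.34% and the nearest barcode outside it 4.93%, and the same values were 5.48% and 4.91% in Ring1AKO. Another 161 barcodes of the WT library and 83 of the Ring1AKO library met every condition but the calgranulin share. No doublet caller was used, and 10 WT and 17 Ring1AKO neutrophils held at least 2 UMIs of a T cell, B cell, macrophage or epithelial marker. Of the kept barcodes 15 occurred in both libraries, and 0 of these were neutrophils.

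The label of neutrophil was checked against marker genes. Retnlg, a secreted resistin-like protein of neutrophils, and the chemokine receptor Cxcr2 were part of the rule. Outside the rule, the genes with the greatest excess over the other kept barcodes included Prok2, a chemoattractant peptide, with log2 ratios of 10.24 in WT and 9.11 in Ring1AKO. They also included the stefin Stfa2l1 (8.42 and 8.80), the granule protein Lcn2 (7.59 and 8.11), the chitinase-like Chil1 (7.52 and 8.09) and Fpr1, the receptor for formylated bacterial peptides (7.85 and 7.43). Prok2 was found in only 28 of 173 WT and 54 of 202 Ring1AKO neutrophils, with 19.5% and 16.2% of its UMIs in 1 cell. Such excesses describe the cells that the rule chose and were not tested. Of the 5 eosinophil markers, Epx, Prg2 and Il5ra were at 0 UMIs in both libraries, and the list summed to 14.0 CPM (counts per 1000000 UMIs) in WT and 6.0 in Ring1AKO. The 5 NK cell markers summed to 14.0 and 11.1 CPM, with Gzma on top (8.93 and 9.06 CPM) and Ncr1 and Prf1 at 0. The 5 mast cell markers summed to 5.10 CPM in WT and 16.1 CPM in Ring1AKO, with Kit on top (5.10 and 7.05 CPM) and Cpa3 and Fcer1a at 0. Plasma cell markers summed to 5497 CPM in WT and 5923 in Ring1AKO neutrophils, with Igkc at 2520 and 2840 CPM the most abundant. They summed to 190729 and 170590 CPM in cell-free barcodes, those with fewer than 100 UMIs. The immunoglobulin genes put the cell-free part of the neutrophils' UMIs at 2.84% and 3.45%. Macrophage markers summed to 121 and 81.6 CPM, monocyte markers to 884 and 625 CPM with Plac8 on top (682 and 386 CPM), and dendritic cell markers to 959 and 618 CPM. All 3 of these sums were lower in Ring1AKO neutrophils, but without Plac8 the monocyte sum was 201 CPM in WT and 240 CPM in Ring1AKO, with Ly6c2 at 103 and 213 CPM. The part of these transcripts in the results below was not tested.

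Most neutrophils of the WT library carried no UMI of these 3 genes, whereas many of the Ring1AKO library did. The sum of Ngp, Camp and Ltf was 0 UMIs in 151 of 173 WT neutrophils (87.3%, 81.4% to 91.9%) and in 107 of 202 Ring1AKO neutrophils (53.0%, 45.8% to 60.0%). These are called mature cells below. A sum of 1 or 2 UMIs occurred in 15 WT (8.67%) and 38 Ring1AKO (18.8%) neutrophils. A sum of 3 or more UMIs, which defines the less mature class here, occurred in 7 WT neutrophils (4.05%, 1.64% to 8.16%) and in 57 Ring1AKO neutrophils (28.2%, 22.1% to 35.0%). The log2 ratio of the less mature shares was 2.80 (1.67 to 4.18), which exceeds counting error. No replicate library shows how much this share varies between pools of mice.

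**Figure D1:**
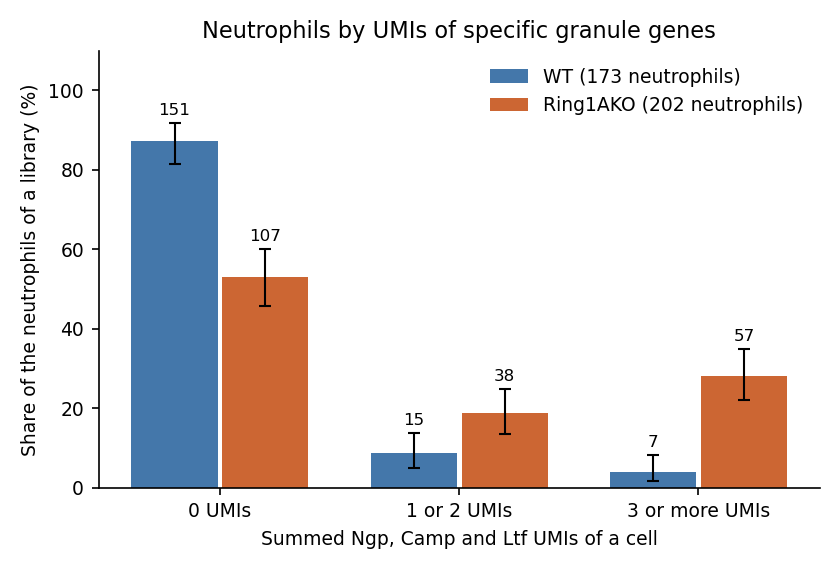
Share of the neutrophils of each library (y axis, %) by the summed UMIs of Ngp, Camp and Ltf in a cell (x axis), with the number of cells above each bar and exact 95% Clopper-Pearson intervals for counting error. The class with 3 or more UMIs holds 4.05% of WT and 28.2% of Ring1AKO neutrophils.

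The limit in UMIs depends on depth, and the less mature cells were the deeper ones. Their median was 6601 UMIs in WT and 6402 in Ring1AKO, against 4402 and 3945 in mature cells. With at least 1000 UMIs per barcode, 6 of 160 WT (3.75%) and 57 of 192 Ring1AKO neutrophils (29.7%) were less mature, a log2 ratio of 2.98 (1.77 to 4.49). After each cell was thinned to 500 UMIs, at least 1 UMI of these genes was left in 3 WT neutrophils (1.73%) and 32 Ring1AKO neutrophils (15.8%). Thinning to 1000 UMIs, which left out 13 WT and 10 Ring1AKO cells, gave 3.13% and 25.0%. The same sum reached 3 UMIs in 2 of 6089 other kept barcodes of the WT library (0.0328%) and in 10 of 8272 of the Ring1AKO library (0.121%), at median depths over all kept barcodes of 6109 and 4825 UMIs. The share in neutrophils was thus far above that in the other cells of the same library.

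The less mature class rested almost wholly on Ngp, neutrophilic granule protein (ENSMUSG00000032484, chr9:110419747-110423012 on the plus strand of GRCm38). Ngp supplied 91.2% of the 68 UMIs of the sum in WT and 98.5% of the 748 in Ring1AKO. It was found in 20 WT cells with 62 UMIs, of which 33.9% lay in 1 cell, and in 94 Ring1AKO cells with 737 UMIs, of which 11.3% lay in 1 cell. Its level was 79.1 CPM (60.6 to 101) in WT and 742 CPM (690 to 798) in Ring1AKO. Camp, the cathelicidin precursor, had 2 and 9 UMIs, and Ltf, lactoferrin, had 4 and 2. Camp in WT and Ltf in both libraries were at or near the level of a count of 3, so no fold change is given for these 2 genes. Of the primary granule genes, Mpo, Elane, Ctsg and Prtn3 were too rare to compare, and Prtn3 had 3 and 2 UMIs. Mki67, Top2a and the other proliferation genes, except Hmgb2 and Pcna, were likewise below the 50 UMIs asked of a gene.

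Within each library, less mature cells were compared with mature cells over 1348 genes with at least 50 UMIs in the neutrophils of each library. Only sizes are given here, and the WT side has just 7 less mature cells. Their UMIs summed to 49383, against 667173 in mature WT cells. The 1 UMI added to each sum therefore raises the WT ratios of genes with few UMIs. In WT 83 genes were at least 2-fold higher (6.16%) and 98 at least 2-fold lower (7.27%) in less mature cells, and in Ring1AKO 15 (1.11%) and 83 (6.16%). At least 2-fold higher in both libraries were 5 genes (0.371% of those compared) and at least 2-fold lower in both were 14 (1.04%). Of these 14, 11 had 3 or fewer UMIs in the less mature WT cells, so that their WT values rest on few counts. Ngp itself chose the classes. Mmp8, neutrophil collagenase of the specific granules, was 607 CPM in less mature and 108 CPM in mature WT cells, a log2 ratio of 2.52 (1.83 to 3.13). In Ring1AKO cells Mmp8 was 1509 and 552 CPM, a log2 ratio of 1.45 (1.23 to 1.68). Retnlg, which the rule used, had log2 ratios of 1.26 and 1.05. Anxa1, annexin A1, an anti-inflammatory protein stored in neutrophil granules, had ratios of 1.44 (0.99 to 1.83) and 1.03 (0.82 to 1.24). Ly6g, the surface antigen used to stain mouse neutrophils, had ratios of 1.25 and 1.00, the latter just under 2-fold, so it is not among the 5. The gene 9830107B12Rik had 1.14 (-0.58 to 2.19) and 1.09 (0.45 to 1.80). Its WT levels were 121 CPM in less mature and 63.0 CPM in mature cells, which is under 2-fold. It is thus among the 5 only through the 1 UMI added to each sum. All of these had a higher level in the less mature cells of both libraries, although the WT interval of 9830107B12Rik, from 6 UMIs, included 0.

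The 3 genes with more than 3 UMIs in the less mature WT cells were Cxcl1, Maff and Bcl2a1b. The chemokine gene Cxcl1 had log2 ratios of less mature over mature cells of -1.45 (-2.66 to -0.69) in WT and -1.26 (-1.72 to -0.85) in Ring1AKO, and the bZIP factor Maff had -1.30 (-3.20 to -0.31) and -1.34 (-1.94 to -0.81). Bcl2a1b, an antiapoptotic gene, had -1.82 (-3.72 to -0.84) and -1.56 (-1.92 to -1.23). It has nearly identical copies, and how reads were shared among them is uncertain. One of these copies, Bcl2a1a, had 0 UMIs in less mature WT cells and 1 in those of Ring1AKO, so no ratio is given for it. For the others the Ring1AKO value is the firmer one. Il1a, which encodes interleukin-1 alpha, had -1.55 (-2.04 to -1.12) in Ring1AKO, and in WT -2.25 (-4.95 to -1.10) from 3 UMIs in less mature cells. Tnf had -1.24 (-1.86 to -0.70) in Ring1AKO, while its WT interval, from 2 UMIs, ran from -4.94 to 0.02. The orphan receptor gene Gpr35 had -1.50 (-2.31 to -0.84) in Ring1AKO, and its WT interval, from 1 UMI, ran from -8.67 to -0.85. The acute phase gene Saa3 had -2.98 (-3.90 to -2.31) in Ring1AKO, with 25.1% of its UMIs in 1 cell. In less mature WT cells Saa3 had 0 UMIs, which is 2.12-fold lower if a floor of 3 counts is set for those cells. The exact interval of its WT log2 ratio allowed less, with an upper limit of -0.76. However, 42.6% of its WT UMIs lay in 1 mature cell, and both values depend on that cell. H2-Aa, a class II antigen presentation gene, had -1.26 (-2.05 to -0.59) in Ring1AKO and in WT -1.55 (-4.25 to -0.38) from 3 UMIs, with 44.2% of its WT UMIs in 1 cell. Over the 13 cytokine and chemokine genes compared, the median log2 ratio was -0.74 in WT and -0.55 in Ring1AKO, and 10 of the 13 were lower in both libraries, beside 33.5% of all 1348 genes, although 2 of the 13 had 0 UMIs in less mature WT cells. Over the 8 survival genes the medians were -0.44 and -1.04, and 6 of the 8 were lower in both libraries. The medians of all 1348 genes were 0.03 and -0.13.

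Between the libraries, 2354 genes had at least 50 UMIs over the neutrophils of both. At least 2-fold higher in Ring1AKO neutrophils were 55 genes (2.34%) and at least 2-fold lower were 197 (8.37%). The median log2 ratio of all 2354 genes was -0.17, a shift against which the values of single genes should be read. With median-of-ratios scaling, which removes most of that shift, 87 genes were higher and 144 lower. When only mature cells were compared, 28 of 1791 genes were at least 2-fold higher (1.56%) and 118 at least 2-fold lower (6.59%), with a median of -0.11. Restriction to mature cells was chosen after the data had been seen. The calgranulins S100a8 (67647 CPM in WT and 89523 in Ring1AKO) and S100a9 (91878 and 120541 CPM) took a larger part of the UMIs in Ring1AKO.

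**Figure D2:**
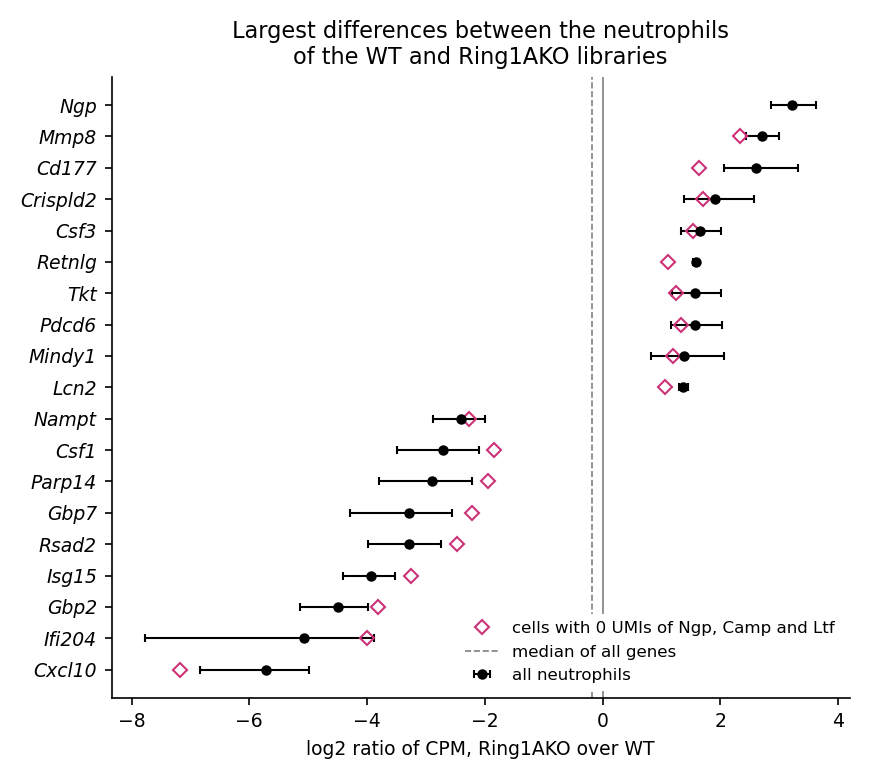
log2 ratio of the level (CPM) in Ring1AKO over WT neutrophils (x axis) for the 10 genes with the largest rises and 9 of the 10 with the largest falls (y axis); black points with exact 95% counting intervals are all neutrophils, open diamonds only the cells with 0 UMIs of Ngp, Camp and Ltf, and the dashed line is the median of all genes, -0.17. The 9 genes that were lower lie on the same side in mature cells alone, and Ngp has no diamond, since those cells have 0 UMIs of it by their choice.

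Most genes compared from the specific granule list had a higher level in Ring1AKO neutrophils. Of the 15 genes of this list 11 had enough UMIs. A higher level was found for 9 of the 11, beside 849 of all 2354 genes, and 7 were at least 2-fold higher, beside 2.34%. None was at least 2-fold lower, beside 8.37% of all genes, and the median log2 ratio was 1.10. Apart from Ngp, Mmp8 (ENSMUSG00000005800, chr9:7558456-7568485, plus strand) was 159 CPM (133 to 190) in WT and 1043 CPM (981 to 1109) in Ring1AKO, a log2 ratio of 2.70 (2.44 to 2.99) and of 1.70 in cells thinned to 500 UMIs. It was found in 52 of 173 WT and 146 of 202 Ring1AKO neutrophils. Cd177, a surface protein that pairs with the integrin Mac-1, had 31.9 and 201 CPM, a ratio of 2.61 (2.06 to 3.32). Lcn2, lipocalin 2, which binds bacterial siderophores, was 2242 CPM (2138 to 2349) in WT and 5797 CPM (5648 to 5948) in Ring1AKO, a ratio of 1.37 (1.29 to 1.45). Anxa1 was 505 and 1087 CPM, a ratio of 1.10, and had 0.69 in mature cells alone, under 2-fold. Lyz2, lysozyme, was 880 and 1109 CPM, a ratio of 0.33, and had -0.25 in mature cells alone. Hp, haptoglobin, had 0.42. Cybb, the oxidase subunit of the granule membrane, was 122 and 78.6 CPM, a ratio of -0.64 (-1.09 to -0.19), with 22.9% and 19.2% of its UMIs in 1 cell, and it had 0.64 with a calgranulin share of at least 10%. The other gene with a lower level was Olfm4, olfactomedin 4, with a ratio of -0.52. Per cell, the summed level of the 15 genes had a median of 4047 CPM in WT and 9410 CPM in Ring1AKO, and the interquartile ranges were 2405 to 6326 and 5433 to 14456 CPM. The interquartile ranges of the libraries thus overlapped only in part. This sum includes Ngp, Camp and Ltf, which set the less mature class.

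Among mature cells, those with 0 UMIs of Ngp, Camp and Ltf, some of these genes were higher in Ring1AKO and others lower, although 0 UMIs at this depth does not show that a transcript was absent. In these cells Mmp8 was 108 CPM in WT and 552 CPM in Ring1AKO, a log2 ratio of 2.34, and Lcn2 was 2140 and 4491 CPM, a ratio of 1.07. Cd177 had a ratio of 1.64. The 2 genes at least 2-fold lower, named after their values were seen, were Cybb, at 135 and 57.8 CPM with a ratio of -1.18, and Olfm4, at 61.5 and 24.1 CPM with a ratio of -1.25. For the list as a whole, 8 genes could be compared in mature cells. Their median was 0.45, with 3 at least 2-fold higher, beside 1.56% of all genes in mature cells, and 2 at least 2-fold lower, beside 6.59%.

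Other genes among the largest rises had varied roles. Csf3, which encodes the growth factor G-CSF, was 119 CPM (95.7 to 145) in WT and 376 CPM (338 to 416) in Ring1AKO, a log2 ratio of 1.65 (1.33 to 2.01). It came from 18 WT and 50 Ring1AKO cells, and 25.8% and 13.9% of its UMIs lay in 1 cell. Crispld2, a secreted protein that binds lipopolysaccharide, had a ratio of 1.91 (1.38 to 2.57). Tkt, the pentose phosphate enzyme transketolase, had 1.57 (1.17 to 2.02), Pdcd6, a calcium-binding protein, had 1.57 (1.16 to 2.02), and the deubiquitinase gene Mindy1 had 1.39 (0.83 to 2.06). In other myeloid cells of these libraries, Csf3 was 33.0 CPM in WT and 72.2 CPM in Ring1AKO monocytes and 19.5 and 72.3 CPM in C1q macrophages. Crispld2 was 1.03 and 16.6 CPM in monocytes and 3.82 and 2.21 CPM in macrophages. Pdcd6 had log2 ratios of 0.34 in monocytes and -0.01 in macrophages, Mindy1 had -0.33 and 0.47, and Tkt had -0.48 and -0.31.

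Interferon-stimulated genes were lower in Ring1AKO neutrophils. Interferons act through receptors on most cells and switch on antiviral and antimicrobial genes there. Of 24 listed genes 16 had enough UMIs, all 16 had a lower level in Ring1AKO, beside 63.9% of all genes, and 11 were at least 2-fold lower, beside 8.37% of all genes. The median log2 ratio was -2.02 and was -1.98 in mature cells, where 11 of 16 were at least 2-fold lower, beside 6.59% of all genes. Ifit1, Ifit2, Ifit3, Ifit3b, Oasl1, Bst2, Igtp and Iigp1 stayed below 50 UMIs.

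Cxcl10, a chemokine that attracts Cxcr3-bearing T cells (ENSMUSG00000034855, chr5:92346638-92348889, minus strand), was 631 CPM (577 to 689) in WT and 11.1 CPM (5.53 to 19.8) in Ring1AKO, a log2 ratio of -5.71 (-6.84 to -4.98). Its UMIs came from 41 of 173 WT and 9 of 202 Ring1AKO neutrophils, and 28.9% of the 495 WT UMIs lay in 1 cell. Its ratio was -3.86 with a calgranulin share of at least 2%, and -7.17 in mature cells alone, which held 462 UMIs in WT and 1 in Ring1AKO. Cell-free RNA held 441 and 164 CPM of Cxcl10. Gbp2, a guanylate-binding protein that attacks pathogen vacuoles (ENSMUSG00000028270, chr3:142620602-142638008, plus strand), was 655 CPM (600 to 715) and 28.2 CPM (18.7 to 40.8), a ratio of -4.49 (-5.14 to -3.99), and was found in 70 WT and 19 Ring1AKO cells. Isg15, a ubiquitin-like modifier (ENSMUSG00000035692, chr4:156199424-156200818, minus strand), was 734 CPM (676 to 797) and 47.3 CPM (34.8 to 62.9), a ratio of -3.93 (-4.42 to -3.53), and was found in 106 and 29 cells. Rsad2, the antiviral enzyme viperin (ENSMUSG00000020641, chr12:26442746-26456452, minus strand), was 264 CPM (229 to 302) and 26.2 CPM (17.1 to 38.4), a ratio of -3.29 (-3.98 to -2.74). All 4 were thus much rarer in Ring1AKO neutrophils, both in UMIs and in the number of cells that held any.

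Ifi204, which encodes a sensor of DNA, had 105 UMIs in WT and 3 in Ring1AKO, a ratio of -5.07 (-7.77 to -3.88). Gbp7 had -3.28 and the ADP-ribosyltransferase gene Parp14 had -2.90. In mature cells alone Gbp2 had -3.82, Isg15 -3.26, Rsad2 -2.46, Ifi204 -4.00, Gbp7 -2.21 and Parp14 -1.95. Cd274, the checkpoint ligand PD-L1, had -1.48. The 3 most abundant genes of the list differed less. Ifitm1 was 8022 and 6494 CPM (-0.30), Ifitm2 was 5645 and 4832 CPM (-0.22) and Ifitm3 was 1849 and 1385 CPM (-0.42). The median of all genes was -0.17, which is near the value of Ifitm2, while Ifitm1 and Ifitm3 lay below it.

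The difference was spread over many cells. Without the 3 Ifitm genes, the other 21 genes summed to a median of 2793 CPM per WT neutrophil, with an interquartile range of 1437 to 6047 CPM. The median per Ring1AKO neutrophil was 761 CPM, with an interquartile range of 376 to 1281 CPM, so that the interquartile ranges did not overlap although the full ranges did. At least 10 UMIs of these genes were present in 98 WT neutrophils (56.6%) and 21 Ring1AKO neutrophils (10.4%). After thinning to 500 UMIs per cell, at least 1 UMI remained in 72.8% (65.6% to 79.3%) of WT and 37.6% (30.9% to 44.7%) of Ring1AKO neutrophils. In WT, 30.7% of the UMIs came from the 10 cells with the most, and in Ring1AKO 20.5%.

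**Figure D3:**
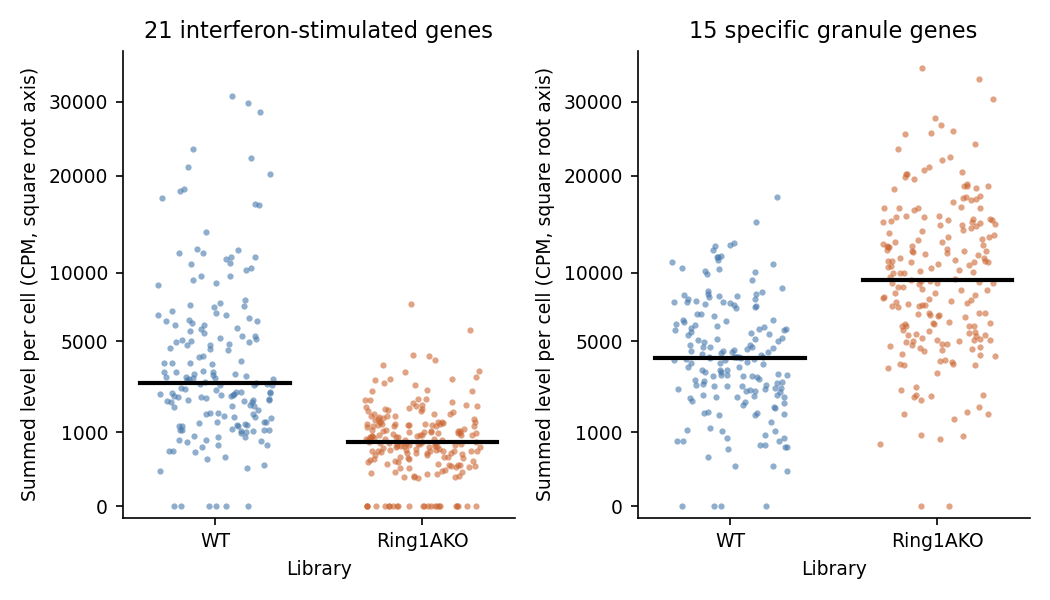
Summed level per neutrophil (y axis, CPM on a square root axis) of 21 interferon-stimulated genes without the Ifitm genes (left) and of 15 specific granule genes (right) in the WT and Ring1AKO libraries (x axis). Each point is a cell and the bars are medians, 2793 and 761 CPM on the left and 4047 and 9410 CPM on the right. The genes on the right include Ngp, Camp and Ltf, which set the less mature class.

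Sequence upstream of these genes was examined for the interferon-stimulated response element, searched as GAAA, 2 bases of any kind and GAAA, or TTTC, 2 bases and TTTC for the other strand. RefSeq windows of GRCm38.p6 from 250 bases before to 50 bases after a gene start were used, and 22 genes of the list had one. The letters were found in 13 of the 22 (59.1%), in 1 of 13 specific granule genes (7.69%), in 0 of 12 genes of chemoattractant and growth factor receptors, and in 3.44% of all 32851 windows. Windows are shown for 3 of the genes that differed most, 5′ to 3′ on the strand of the gene and ending at its start, with matches in capitals. The match of the Gbp2 window lay past the start of the longest annotated transcript and is not shown.
Cxcl10: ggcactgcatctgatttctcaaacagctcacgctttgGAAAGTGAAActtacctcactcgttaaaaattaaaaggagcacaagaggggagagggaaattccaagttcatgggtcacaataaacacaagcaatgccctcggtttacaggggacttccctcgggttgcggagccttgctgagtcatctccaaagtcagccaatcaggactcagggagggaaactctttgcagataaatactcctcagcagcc
Isg15: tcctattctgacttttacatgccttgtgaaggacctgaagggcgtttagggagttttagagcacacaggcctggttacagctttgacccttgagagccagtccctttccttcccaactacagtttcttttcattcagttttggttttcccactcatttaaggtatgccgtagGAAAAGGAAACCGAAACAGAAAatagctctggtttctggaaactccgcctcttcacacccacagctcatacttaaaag
Rsad2: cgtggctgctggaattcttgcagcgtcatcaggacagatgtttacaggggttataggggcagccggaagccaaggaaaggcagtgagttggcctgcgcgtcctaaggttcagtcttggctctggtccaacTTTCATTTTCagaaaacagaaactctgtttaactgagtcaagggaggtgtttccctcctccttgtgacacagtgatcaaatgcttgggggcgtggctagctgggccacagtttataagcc
These are chr5:92348890-92349139, chr4:156200819-156201068 and chr12:26456453-26456702, all on the minus strand. The Cxcl10 match began at -213 from the start, the 3 overlapping Isg15 matches between -78 and -66, and the Rsad2 match at -120. A match of these letters is a description and was not tested as a site.

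Most interferon-stimulated genes compared in other myeloid cells of the same libraries were also lower in Ring1AKO. The exceptions were Ifitm1, with log2 ratios of 0.56 in monocytes and 0.90 in macrophages, and Ifitm2, with 0.07 in macrophages. Monocytes (987 in WT and 385 in Ring1AKO) were taken as kept barcodes with at least 3 UMIs of Ly6c2, Ccr2, Ms4a4c and F13a1, and C1q macrophages (273 and 232) as those with at least 10 UMIs of the C1q genes. In monocytes 16 of 23 interferon-stimulated genes were at least 2-fold lower, beside 5.38% of 9112 genes, and the median was -2.03. None was at least 2-fold higher, beside 2.48% of all genes. In C1q macrophages 12 of 21 were at least 2-fold lower, beside 3.84% of 5962 genes, with a median of -1.43, and 0 were at least 2-fold higher, beside 2.11%. Gbp2 had a log2 ratio of -4.11 in monocytes and -3.99 in macrophages, close to the neutrophil value. Cxcl10 had -5.71 in neutrophils, -2.50 in monocytes and -0.88 in macrophages, and its level was 1290 and 228 CPM in monocytes and 1151 and 625 CPM in macrophages. Rsad2 had -3.29, -1.79 and -0.31. Whether the fold differed between the cell types could not be tested with 1 library each.

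**Figure D4:**
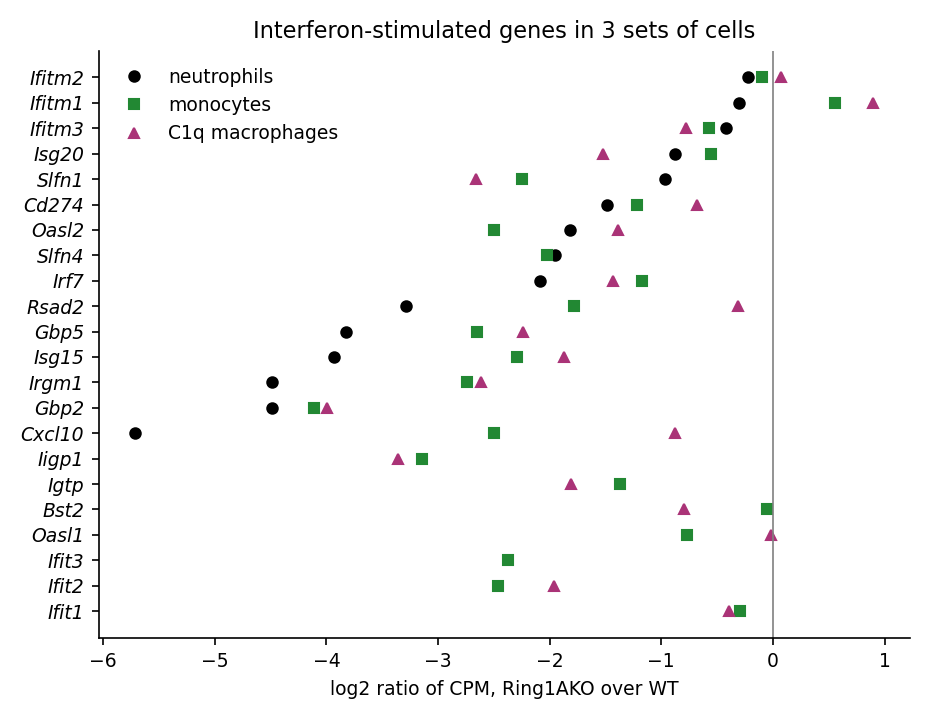
log2 ratio of the level (CPM) in Ring1AKO over WT (x axis) for the interferon-stimulated genes shown, each with at least 50 UMIs in a set of cells (y axis), in neutrophils (circles), monocytes (squares) and C1q macrophages (triangles). All points but those of Ifitm1 in monocytes and macrophages and of Ifitm2 in macrophages lie left of 0, and those of Cxcl10 lie apart at -5.71, -2.50 and -0.88.

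Cytokines and chemokines made up a large part of neutrophil transcripts, 89744 CPM over the 20 genes in WT and 64804 CPM in Ring1AKO. Of 16 genes compared, 0 were at least 2-fold higher and 2 at least 2-fold lower, Cxcl10 and Csf1, beside 2.34% and 8.37% of all genes, and the median was -0.27. Cxcl2, a ligand of Cxcr2 and the most abundant of them, was 46543 CPM in WT and 33798 CPM in Ring1AKO, a log2 ratio of -0.46 (-0.48 to -0.44). Il1b, interleukin-1 beta, was 23678 and 14199 CPM, a ratio of -0.74 (-0.77 to -0.71), and was found in 171 of 173 and 198 of 202 cells. Ccl4, a CC chemokine, was 6210 and 6270 CPM. Csf1, which encodes the macrophage growth factor M-CSF, was 150 CPM (125 to 180) and 22.2 CPM (13.9 to 33.5), a ratio of -2.71 (-3.49 to -2.10), which lay between -3.47 and -1.67 under the alternatives and was -1.84 in mature cells. Nampt, an enzyme of NAD synthesis that is also secreted, was 303 and 56.4 CPM, a ratio of -2.41 (-2.87 to -2.00), and had -1.69 in monocytes and -0.78 in C1q macrophages.

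The study singled out Mmp8, Mmp9, Cxcl1, Ccl6 and Tnf for neutrophils of these same libraries, so that their values are no independent evidence. Of the 5, only Mmp8 was past 2-fold, and it was higher, beside 2.34% of all genes at least 2-fold higher and 8.37% at least 2-fold lower. Mmp9, gelatinase B, was 681 and 987 CPM, a ratio of 0.53 (0.38 to 0.69), and 0.25 in mature cells. Ccl6, a CC chemokine, was 880 and 1300 CPM, a ratio of 0.56 (0.43 to 0.70). Tnf was 147 and 203 CPM, a ratio of 0.47 (0.13 to 0.82). Cxcl1 was 550 and 346 CPM, a ratio of -0.66 (-0.87 to -0.46), from 22 WT and 32 Ring1AKO cells with 28.3% and 15.4% of the UMIs in 1 cell. With a calgranulin share of at least 2% in place of 5%, the Cxcl1 ratio was 0.24, so its direction depended on the rule for cells. In monocytes Cxcl1 was 184 and 620 CPM, and in macrophages 520 and 2179 CPM.

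Of 13 chemoattractant and growth factor receptor genes compared, 11 had a lower level in Ring1AKO, beside 63.9% of all genes. Of these 13, 0 were at least 2-fold higher and 1, Cxcr4, was at least 2-fold lower, beside 2.34% and 8.37% of all genes, and the median was -0.46. Cxcr4, the receptor for Cxcl12 that retains neutrophils in the marrow, was 550 and 220 CPM, a log2 ratio of -1.32 (-1.57 to -1.09). In mature cells alone, however, Cxcr4 had -0.97, and 0 of the 13 were at least 2-fold lower there, beside 6.59% of all genes. Csf3r, the G-CSF receptor, was 1266 and 902 CPM (-0.49) and Cxcr2 was 408 and 353 CPM (-0.21). Both were part of the rule. Ccr1 had -0.50 and Fpr1 0.36. Of the 9 adhesion genes, Cd177 was at least 2-fold higher and Itga4, integrin alpha 4, at least 2-fold lower, with 74.0 and 20.1 CPM, beside 2.34% and 8.37% of all genes, and the median was -0.14.

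Enzymes of mediator synthesis went both ways. Ptgs2, cyclooxygenase-2, was 3810 CPM (3675 to 3949) in WT and 1405 CPM (1332 to 1481) in Ring1AKO, a log2 ratio of -1.44 (-1.53 to -1.35) and of -1.05 in mature cells. Acod1, the itaconate enzyme, was 6122 and 3637 CPM, a ratio of -0.75 (-0.81 to -0.69). Hdc, which makes histamine, was 3276 and 3237 CPM. Nos2, inducible nitric oxide synthase, was 28.1 and 64.5 CPM, a ratio of 1.16 (0.48 to 1.97), from 11 and 22 cells. In mature cells it had only 22 and 7 UMIs, with a ratio of -0.84. Over the 7 genes compared 2, Nos2 and Alox5ap, were at least 2-fold higher and 1, Ptgs2, at least 2-fold lower, beside 2.34% and 8.37% of all genes, and the median was -0.02.

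Among the calgranulins and mature neutrophil transcripts, 1 of 16, Retnlg, was at least 2-fold higher and 2, the stefins Stfa1 and Stfa2l1, at least 2-fold lower, beside 2.34% and 8.37% of all genes, with a median of 0.15. Retnlg was 7217 CPM (7030 to 7408) in WT and 21635 CPM in Ring1AKO, a log2 ratio of 1.58 (1.54 to 1.63), while in the cell-free RNA it was 115 and 301 CPM. Stfa2l1, an intracellular inhibitor of cysteine proteases, was 1826 and 721 CPM, a ratio of -1.34 (-1.47 to -1.21), from 107 and 82 cells. Stfa1 had 41.8% and 43.5% of its UMIs in 1 cell, and its ratio of -1.42 became -0.74 as a mean over cells. The stefins are near-identical paralogs, so how reads were shared among them is uncertain. Wfdc21, an antimicrobial peptide gene, was 2157 and 4179 CPM, a ratio of 0.95 (0.87 to 1.04).

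The remaining lists had medians between -0.46 and 0.17, apart from the azurophil granule list, and their counts stand beside 2.34% of all genes at least 2-fold higher and 8.37% at least 2-fold lower. Of the 7 NADPH oxidase genes, which make the oxidative burst, 0 were past 2-fold and the median was 0.17. Rac2, its GTPase, was 713 and 1263 CPM, a log2 ratio of 0.82 (0.68 to 0.97). Of 10 gelatinase granule and secretory vesicle genes 0 were past 2-fold and the median was 0.08. The azurophil granule list had only Srgn, the proteoglycan serglycin, with -0.13 and Cstdc4, a gene of the stefin family, with -0.97 to compare, and these say nothing of azurophil granule proteins as a group. The proliferation list had only Hmgb2 and Pcna, with a median of -0.46. Of 20 transcription factor and early response genes 1, the stress factor gene Atf3, was at least 2-fold lower, with 491 and 166 CPM and a ratio of -1.56 (-1.83 to -1.30), and the median was -0.13. Of 17 hypoxia and glycolysis genes, Hilpda, a lipid droplet protein induced in hypoxia, was at least 2-fold higher (380 and 762 CPM, a ratio of 1.00 that fell to 0.98 under some alternatives) and 2, Bnip3 and Mif, were at least 2-fold lower, with a median of 0.03. Gapdh was 1380 and 2101 CPM, a ratio of 0.61 (0.50 to 0.71). Of 8 survival genes, Gadd45b was at least 2-fold lower (1902 and 925 CPM, a ratio of -1.04), but had -0.53 in mature cells alone. In mature cells 0 of the 8 were at least 2-fold lower, beside 6.59% of all genes there. In the same cells 1 of the 8, Bcl2a1d with 1.27, was at least 2-fold higher, beside 1.56%. Mcl1, on which neutrophil survival depends, was 3249 and 2588 CPM (-0.33) in all neutrophils, and the median of the list was -0.29. A list for tissue neutrophils that carry Siglecf had 13 genes compared, with 2, Atf3 and Ptgs2, at least 2-fold lower and a median of -0.41.

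**Figure D5:**
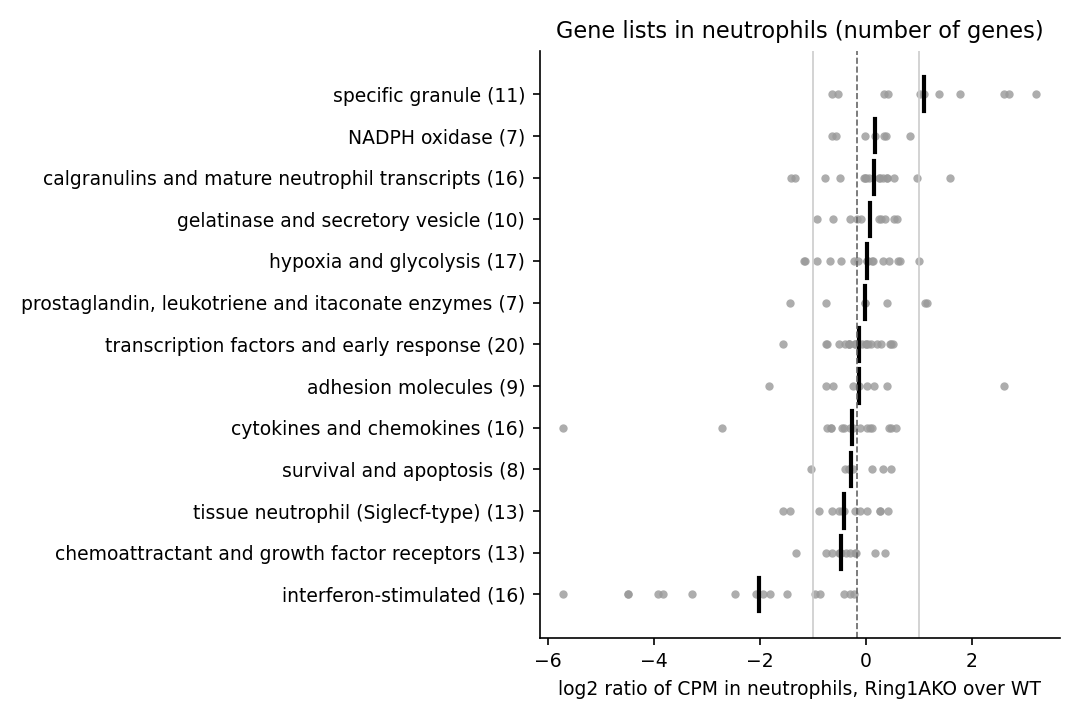
log2 ratio of the level (CPM) in Ring1AKO over WT neutrophils (x axis) for the genes of each list (y axis, number of genes compared in brackets); grey points are genes, black bars list medians, the dashed line the median of all genes at -0.17 and the thin lines a 2-fold difference. The interferon-stimulated list lies lowest, with a median of -2.02, and the specific granule list highest, with 1.10.

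The targeted gene could not be checked in these cells. Ring1 (ENSMUSG00000024325, chr17:34020792-34024680, minus strand), which encodes Ring1a, had 2 UMIs in WT and 2 in Ring1AKO neutrophils. In the other kept barcodes it was 13.5 and 12.0 CPM, so these counts did not tell the libraries apart and the genotype rests on the labels. Rnf2, which encodes the paralog Ring1b, had 12 UMIs in each library's neutrophils.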

How the data were processed

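The authors prepared 10x Genomics 3′ libraries, mapped the reads and counted UMIs with Cell Ranger. Their deposited files were unfiltered UMI count matrices of 32228 genes by barcode, which summed to 74414511 UMIs for WT and 81862096 for Ring1AKO. The matrix header names Cell Ranger 4, while the submitters' processing notes name Cell Ranger 6.0.2, Seurat and mm39. The paper gives mm10, so the build of the counts is unsure, and coordinates printed here are those of GENCODE vM21 and RefSeq on GRCm38. Of 32228 gene IDs 32150 matched the annotation.

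Levels are the UMIs of a gene summed over cells and scaled to all UMIs of those cells (CPM). A log2 ratio adds 1 UMI to each sum. Genes needed 50 UMIs over both libraries, and "past 2-fold" is a count by size and not a test. Python 3.11.15 with numpy 2.4.6, scipy 1.17.1 and pandas 2.3.3 was used. Poisson counts were simulated for the 2354 genes compared between all neutrophils of the libraries, with 200 genes changed. Of the changed genes 100% had the right direction, and 95.5% of intervals held the true value. The intervals assume Poisson counts too, so this checks the calculation only. It does not show how the intervals hold for real genes whose UMIs gather in few cells.

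The members and gene lists were chosen with earlier results of these data known. Genes named are those of the rules for cells, the 3 most abundant and the most extreme genes of each list, the 10 largest rises and falls among genes with at least 100 UMIs and 100 CPM, the 10 highest and lowest in less mature cells, the 15 highest against other cells, and 5 genes of the study. A few further list members, named to make up a count of genes past 2-fold, were chosen after their values were seen. Alternatives varied the filters, the rule, the scaling, the correction for cell-free RNA and the depth. A few genes that these rules choose, though included in the counts and medians, are not reported here.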

Additional observations from a re-analysis of the deposited data

Results flagged for a closer look

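Some barcodes outside the kept set carried neutrophil transcripts. With at least 200 and fewer than 500 UMIs, 24 barcodes of the WT library and 9 of the Ring1AKO library had the calgranulin share that the rule asks for, and they entered no comparison. With 5% or more mitochondrial UMIs, 13 WT and 4 Ring1AKO barcodes met the rest of the rule.

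G0s2, an inhibitor of lipolysis that the rule used, had a log2 ratio of less mature over mature neutrophils of 0.24 (0.11 to 0.36) in WT and of -0.09 (-0.15 to -0.03) in Ring1AKO. Ifitm2 had -0.24 (-0.44 to -0.06) in WT and 0.09 (0.00 to 0.19) in Ring1AKO. The libraries thus had opposite signs for both genes. The difference was not tested, and the WT values rest on 7 less mature cells.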

How the results depend on the processing

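No paired analysis was possible because there was only 1 library of each genotype, and for the same reason no library could be left out. The less mature share stayed higher in Ring1AKO under all 14 alternatives, with a log2 ratio between 1.89 and 4.17, the latter at 10 UMIs or more (1 and 21 cells). The neutrophil share had a log2 ratio between -0.30 and 0.47, the latter without B and plasma cells. The 55 genes at least 2-fold higher became 87 with median-of-ratios scaling, 119 with genes of at least 20 UMIs, 20 with at least 200 UMIs, 16 in cells thinned to 500 UMIs and 28 in mature cells alone. The 197 lower became 144, 465, 45, 19 and 118. Thinning leaves fewer genes to compare, and the other causes were not tested. The interferon-stimulated median lay between -2.13 and -1.18, the latter in thinned cells. The specific granule median lay between 0.45, in mature cells alone, and 1.33. The calgranulin list had 0.24 without S100a8 and S100a9 in the denominator and 0.30 with median-of-ratios scaling. Thinned cells gave -0.29 for adhesion, 0.52 for hypoxia, -0.45 for survival, -0.025 for tissue neutrophils, -0.22 for mediator enzymes and 0.84 for the genes of the study. Mature cells alone gave 0.081 for transcription factors and -0.0046 for tissue neutrophils. The 5 genes at least 2-fold higher in less mature cells of both libraries became 2 with a calgranulin share of at least 10%, 3 without cells with signs of a doublet, 3 and 11 with less mature cells set at 1 and 10 UMIs, and 97 in thinned cells. The 14 lower became 7 at 10%, 33 at a share of at least 2%, 6 at 1 UMI and 5 in thinned cells. In thinned cells this comparison kept the genes chosen before thinning, and each of the few less mature WT cells held 500 UMIs. The 1 UMI added to each sum then gave high WT ratios to genes with few or no UMIs. The counts of 97 and 5 are therefore not comparable with the others. The medians of the adhesion, survival, gelatinase, hypoxia, mediator enzyme and transcription factor lists changed sign under at least 1 alternative. Those of the specific granule, interferon-stimulated, receptor, cytokine, oxidase and calgranulin lists kept theirs. Of 97 named genes 24 changed sign under at least 1 alternative, among them Cxcl1, Cybb, Lyz2, Saa3 and Prok2, and 0 of these 24 were among the 32 at least 2-fold apart. Of those 32, 6 were under 2-fold in at least 1 alternative and 12 moved by over 1.5 times, with Cxcl10 between -7.17 and -3.86, Csf1 between -3.47 and -1.67 and Mmp8 between 1.70 and 2.85. These counts left out mature cells alone for Nos2 and Bnip3. There Nos2 changed sign, with a ratio of -0.84 against 1.16 in all neutrophils. Bnip3 was under 2-fold there, with -0.68 against -1.17.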

Other observations

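Camp had a higher level in cell-free RNA than in neutrophils. It had 48.9 CPM (477 UMIs) in the cell-free RNA of the WT library and 52.5 CPM (462 UMIs) in that of the Ring1AKO library, against 2 and 9 UMIs in the neutrophils. Ngp in cell-free RNA was 29.4 and 42.8 CPM. Prok2 was 121 CPM in less mature and 165 CPM in mature WT cells but 484 and 98.8 CPM in Ring1AKO cells, log2 ratios of -0.23 (-1.92 to 0.73) and 2.27 (1.79 to 2.82). This difference was not tested.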
